A study of Mus musculus with 12 samples.

Results

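The genes described here are 35 members of the endoplasmic reticulum (ER) stress and unfolded protein response pathway, taken by gene name from a table of 22557 genes measured by RNA sequencing of mouse liver. They were divided by role into 5 sensors and transcription factors, 7 genes of the ATF4 branch, 15 chaperones and folding enzymes, 6 genes of ER-associated degradation and 2 genes of protein translocation into the ER. All 35 were found once in the table and all 35 passed the filter on low values, the lowest of them with a value of at least 10 in 7 of 12 libraries. The livers came from female mice in 4 groups of 3 mice: Mtdh KO mice bearing a Py8119 mammary tumour (Tumor-KO), WT mice bearing that tumour (Tumor-WT), tumour-free Mtdh KO mice (Normal-KO) and tumour-free WT mice (Normal-WT). Mtdh encodes metadherin, which is studied for its part in metastasis, and the Py8119 cells derive from a mammary tumour of the mouse. The series asks how Mtdh of the host acts on the liver and on immunity in tumour-bearing mice. The libraries were made from powdered liver, so that all cell types of the organ contribute, and replicates came from different mice. The groups were age-matched, and the sources used here do not give the age itself, the strain, the knockout allele or the site of the tumour.

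The ER of a hepatocyte folds the plasma proteins that the liver secretes, and unfolded protein in its lumen is sensed by IRE1 (encoded by Ern1), PERK (Eif2ak3) and ATF6 (Atf6). IRE1 splices the Xbp1 messenger RNA so that it encodes an active transcription factor, ATF6 is cut to release another, and PERK phosphorylates eIF2 alpha, which favours translation of ATF4. XBP1 and ATF6 are known to raise genes of chaperones, degradation and translocation, whereas ATF4 raises genes of amino acid supply and of the late stress programme, among them Ddit3 (CHOP). The deposited gene values do not separate spliced from unspliced Xbp1, and they hold no measure of protein or of phosphorylation.

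Values are reads scaled by the size factor of their library, called normalised reads here. The value of 1 read gave estimated depths of 12700000 reads in Tumor-KO replicate 1 and 25700000 to 43000000 reads in the other libraries. A pair of libraries stood apart: Tumor-KO replicate 1 had 14899 genes above 0, against 17772 to 20365 in the others, and Normal-KO replicate 3 held 4.84% small nucleolar RNA signal, against at most 1.23% in the others. Mtdh itself read 1063, 380 and 323 normalised reads in Tumor-KO, 5290, 3954 and 5702 in Tumor-WT, 584, 436 and 627 in Normal-KO, and 4330, 5375 and 4973 in Normal-WT. All 6 KO libraries thus lay below all 6 WT libraries. The hepatocyte markers summed to between 2365110 and 4378320 normalised reads in every library. Tests used limma on log2(value + 1) over 17380 genes, with p-values adjusted by the Benjamini-Hochberg method and a threshold of 0.05.

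A known sequence motif was found in the promoters of some of the chaperone and degradation genes. The ER stress response element (ERSE: CCAAT, then 9 bases of any kind, then CCACG, on either strand) is known as a site bound by ATF6 and XBP1 together with NF-Y. It was found in the 250 bases upstream of the start of 9 of the 32 members with a RefSeq promoter (GRCm38.p6), against 37 of 32851 promoters of all genes, or 0.113%. The 37 include the 9 member promoters. The members were listed as genes of this response, so their share is a description and not a test. The 9 were 7 of 13 matched chaperone genes (Hspa5, Hsp90b1, Calr, Canx, Creld2, Dnajc3 and Pdia6) and 2 of 6 degradation genes (Derl3 and Syvn1), and the count was 0 among 7 ATF4-branch genes, 4 sensors and factors, and 2 translocation genes. ERSE-II (ATTGG, 1 base of any kind, then CCACG) was found in 1 member, Herpud1, against 0.0304% of all promoters, and the UPRE core (TGACGTGG) in 0 members, against 0.563%. The core of the CARE element (TTNCATCA), which ATF4 binds with C/EBP partners, was found in Asns, Chac1 and Herpud1, against 3.45% of all promoters, and the CRE (TGACGTCA) in Ppp1r15a, against 1.55%. Motif matches overlapped each other in 0 members. Hspa5, Creld2, Syvn1 and Chac1 are printed because their messenger RNAs passed the test for a tumour effect in at least 1 comparison and their promoters hold a motif, and Canx because it holds an ERSE while its level hardly moved, a choice made after its values were seen. Sdf2l1 and Xbp1 passed a test for a tumour effect too, with 0 matches to any searched motif in their promoters. Manf also passed one, and Manf, Hyou1 and Atf6 had no RefSeq promoter to search. In the printed sequences capitals mark the ERSE, and in Chac1 the CARE core. The ERSE starts 65 bases before the start site in Hspa5, 126 in Creld2, where it lies on the other strand, 44 in Syvn1 and 145 in Canx, and the CARE core of Chac1 starts 193 bases before it.
Hspa5, chr2:34771840-34772089, strand +: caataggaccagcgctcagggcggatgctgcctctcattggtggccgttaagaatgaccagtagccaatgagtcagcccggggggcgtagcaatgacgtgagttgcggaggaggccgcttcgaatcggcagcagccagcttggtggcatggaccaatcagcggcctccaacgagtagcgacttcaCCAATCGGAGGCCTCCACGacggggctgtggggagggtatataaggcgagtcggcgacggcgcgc
Creld2, chr15:88819396-88819645, strand +: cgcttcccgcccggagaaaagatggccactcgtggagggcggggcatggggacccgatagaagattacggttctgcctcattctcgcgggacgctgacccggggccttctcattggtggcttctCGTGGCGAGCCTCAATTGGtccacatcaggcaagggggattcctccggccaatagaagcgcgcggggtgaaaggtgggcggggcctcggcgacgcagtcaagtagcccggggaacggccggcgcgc
Syvn1, chr19:6046326-6046575, strand +: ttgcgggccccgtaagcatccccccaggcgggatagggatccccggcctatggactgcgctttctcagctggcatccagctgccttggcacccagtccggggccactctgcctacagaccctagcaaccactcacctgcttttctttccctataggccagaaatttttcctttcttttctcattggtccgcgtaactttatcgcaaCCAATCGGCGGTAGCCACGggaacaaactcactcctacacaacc
Chac1, chr2:119350992-119351241, strand +: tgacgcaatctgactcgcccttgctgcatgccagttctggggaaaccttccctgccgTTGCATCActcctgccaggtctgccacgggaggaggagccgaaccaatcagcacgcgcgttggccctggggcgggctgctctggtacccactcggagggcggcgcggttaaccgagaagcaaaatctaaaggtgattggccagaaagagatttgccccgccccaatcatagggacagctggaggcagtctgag
Canx, chr11:50325674-50325923, strand -: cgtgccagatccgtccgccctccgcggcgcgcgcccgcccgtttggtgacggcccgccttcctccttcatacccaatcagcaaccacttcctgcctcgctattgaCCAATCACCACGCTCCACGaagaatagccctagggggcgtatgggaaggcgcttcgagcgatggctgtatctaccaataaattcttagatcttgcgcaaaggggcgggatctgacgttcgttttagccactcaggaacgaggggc

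WT livers of tumour-bearing mice had more messenger RNA of the ER chaperones Sdf2l1 and Hspa5, of Xbp1 and of the degradation gene Syvn1 than tumour-free WT livers. Of the 35 members 4 rose past the limma threshold over all genes and 0 fell: the chaperone partner Sdf2l1, the central ER chaperone Hspa5, the transcription factor Xbp1 and the ER ubiquitin ligase Syvn1. Over all genes tested, 0.432% rose and 0.247% fell past the same threshold. At an unadjusted p under 0.05, 20 members were higher and 0 lower, against 4.49% and 4.18% of all genes and 8.67% in either direction. Of the members 30 had a positive log2 fold change, with a median of 0.66, against 50.4% of all genes and a median of 0.00 over all genes. In 20 members every Tumor-WT library lay above every Normal-WT library, against 9.46% of all genes tested, and in 0 members did every Tumor-WT library lie below, against 8.05%. The median SE was 0.25 over the members and 0.50 over all genes tested. The shares over all genes given here and below are thus not from genes of like precision.

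Hspa5 (ENSMUSG00000026864, chromosome 2, 34661982 to 34667559, mm39), which encodes BiP, the Hsp70 chaperone of the ER lumen that also holds the sensors inactive, read 16554, 17111 and 14421 normalised reads in Tumor-WT livers, against 7217, 5552 and 8997 in Normal-WT livers. The lowest tumour-bearing liver lay well above the highest tumour-free one. The means were 16029 ± 1420 in Tumor-WT and 7255 ± 1722 in Normal-WT (SD, n = 3 each), a log2 fold change of 1.17 ± 0.22 (SE, limma adjusted p = 0.0293). Sdf2l1 (ENSMUSG00000022769, chromosome 16, 16948002 to 16950247), whose product works in the BiP and ERdj3 folding complex, read 2206, 2322 and 3034 in Tumor-WT livers, against 421, 403 and 1117 in Normal-WT livers. The groups did not overlap, and Normal-WT replicate 3 stood above the other two tumour-free livers. Its log2 fold change was 2.12 ± 0.39 (SE, limma adjusted p = 0.0238). The calls of both genes depended on single libraries. Sdf2l1 did not pass without Tumor-WT replicate 1 (limma adjusted p = 0.0968) or 3 (0.125) or Normal-WT replicate 1 (0.130) or 2 (0.123), with a log2 fold change of 1.86 to 2.60 over all 12 single omissions. Hspa5 did not pass without Tumor-WT replicate 1 (limma adjusted p = 0.137), 2 (0.0656) or 3 (0.0887) or Normal-WT replicate 1 (0.122) or 2 (0.133), with a log2 fold change of 0.99 to 1.34.

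Xbp1 (ENSMUSG00000020484, chromosome 11, 5470659 to 5475893) read 15524, 15906 and 19881 normalised reads in Tumor-WT livers, against 8682, 8248 and 8765 in Normal-WT livers. The tumour-free livers were tightly grouped and the tumour-bearing ones lay clear of them. The log2 fold change was 0.99 ± 0.20 (SE, limma adjusted p = 0.0369). Syvn1 (ENSMUSG00000024807, chromosome 19, 6096606 to 6103742), which encodes HRD1, the ubiquitin ligase that marks misfolded ER proteins for the proteasome, read 2521, 2787 and 1759 in Tumor-WT livers, against 1209, 1161 and 1041 in Normal-WT livers. Again the groups did not overlap, and Tumor-WT replicate 3 was the lowest of the tumour-bearing livers. Its log2 fold change was 1.03 ± 0.22 (SE, limma adjusted p = 0.0448). Syvn1 overlaps Mrpl49 on the opposite strand, and since the sources used here do not say whether counting used strand, their reads may not be told apart. Among 12 fits that each left out 1 library, Xbp1 passed in 4, those without Tumor-KO replicate 1, 2 or 3 or Tumor-WT replicate 2, and its adjusted p ran from 0.0124 to 0.173. Syvn1 passed in 2, those without Tumor-KO replicate 1 or 3, and its adjusted p ran from 0.0232 to 0.227. With the replicate number as a block Xbp1 (limma adjusted p = 0.0561) and Hspa5 (0.0579) did not pass. With the 6 WT libraries fitted alone Hspa5 (limma adjusted p = 0.0505), Xbp1 (0.0604) and Syvn1 (0.0635) did not pass, whereas Sdf2l1 did, together with Creld2 (0.0264) and Manf (0.0214). After rescaling to equal totals Xbp1 (limma adjusted p = 0.0510) and Syvn1 (0.0601) did not pass, nor did Syvn1 without the filter on low values (0.0502).

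**Figure D1:**
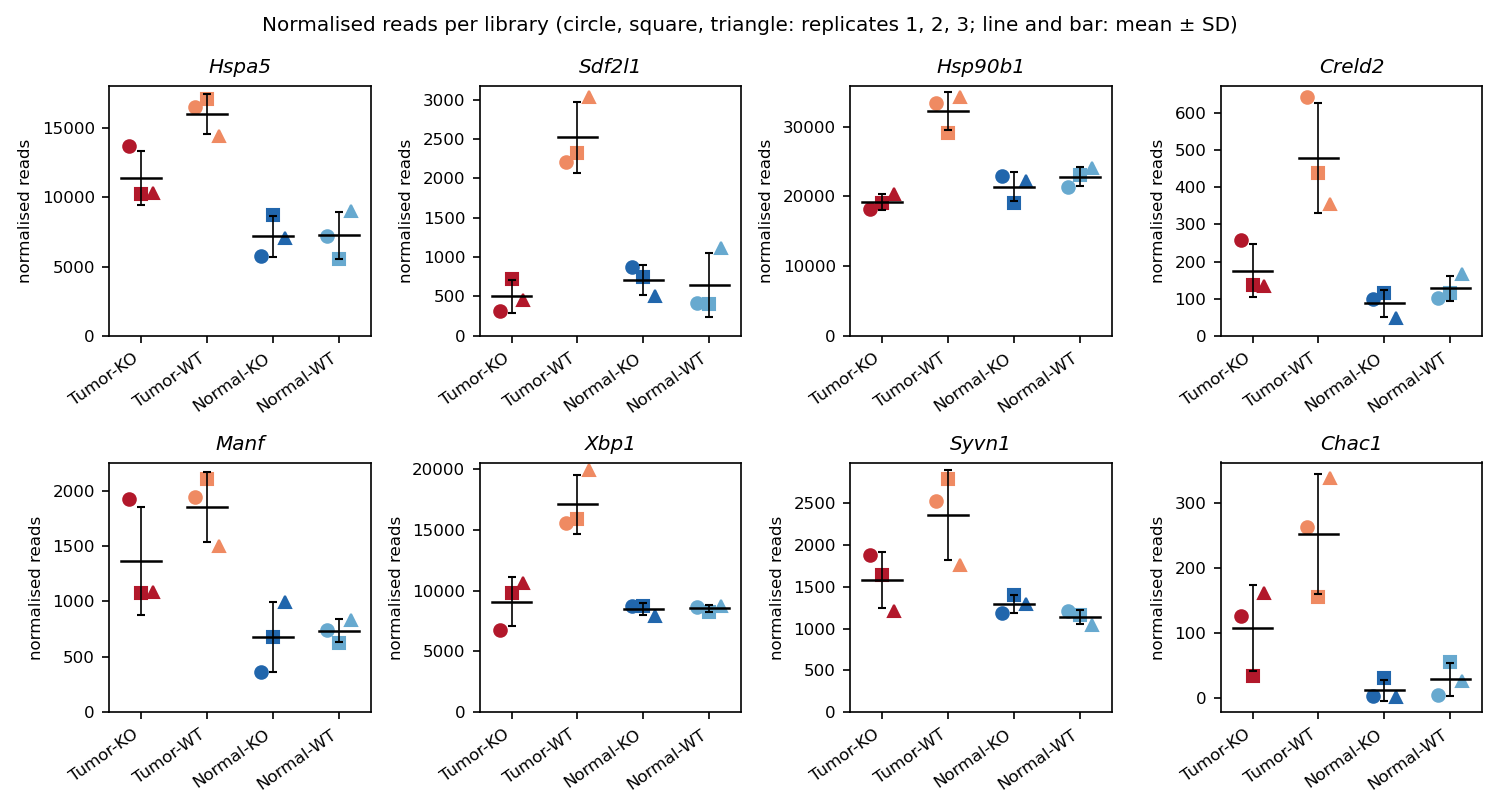
Normalised reads (vertical axis, from 0) of 8 members in each of the 12 libraries, by group on the horizontal axis; points are libraries, lines and bars are the mean and SD of 3. Hspa5, Sdf2l1, Hsp90b1 and Xbp1 are highest in the 3 Tumor-WT libraries, with Hspa5 between 14421 and 17111 there, and Chac1 is low in the tumour-free groups.

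Of 15 chaperone and folding genes 14 had a positive log2 fold change, with a median of 0.68, against 50.4% of all genes. Past the threshold 2 of the 15 rose, against 0.432% of all genes, and 0 fell, and 11 had Tumor-WT libraries all above the Normal-WT ones, against 9.46% of all genes. Creld2, a small ER factor secreted under stress, read 643, 439 and 354 normalised reads in Tumor-WT livers, against 103, 116 and 166 in Normal-WT livers. The lowest tumour-bearing value exceeded the highest tumour-free value by a wide margin, and the log2 fold change was 1.88 ± 0.44 (SE, limma adjusted p = 0.0845). Manf, an ER-resident secreted trophic factor, read 1942, 2105 and 1498 in Tumor-WT livers, against 745, 629 and 836 in Normal-WT livers, with no overlap (1.32 ± 0.33, limma adjusted p = 0.113). The protein disulphide isomerase gene Pdia4 read 5372, 6187 and 6929 in Tumor-WT livers, against 3687, 2386 and 4007 in Normal-WT livers (0.90 ± 0.22, limma adjusted p = 0.109). The groups were separate there too. Hsp90b1, which encodes the ER Hsp90 paralogue GRP94, read 33417, 29099 and 34211 in Tumor-WT livers, against 21299, 23137 and 24011 in Normal-WT livers, with log2 fold change 0.50 ± 0.19 (limma adjusted p = 0.418). These 3 tumour-bearing livers were the highest of all 12 for this gene. The span of Hsp90b1 overlaps Gm15344 on the same strand and 1810014B01Rik on the opposite strand. The remaining log2 fold changes ran from -0.01 for Canx, the membrane lectin calnexin, to 0.84 for Hyou1, a nucleotide exchange factor for BiP. Canx read 13375, 14175 and 17017 in Tumor-WT livers, against 15179, 15124 and 14388 in Normal-WT livers, so the groups overlapped, and its promoter carries an ERSE. Over the 9 members with an ERSE the median log2 fold change was 0.72, and it was 0.57 over the 23 matched members without one.

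All 6 degradation genes had a positive log2 fold change in Tumor-WT over Normal-WT, with a median of 0.62, against 50.4% of all genes, and 1 of them, Syvn1, rose past the threshold, against 0.432%. Sel1l, the partner of HRD1, read 9219, 7805 and 9377 normalised reads in Tumor-WT livers, against 7360, 7256 and 5726 in Normal-WT livers (0.38 ± 0.17, limma adjusted p = 0.543). Selenos, a selenoprotein of the same complex, read 878, 1017 and 859 in Tumor-WT livers, against 648, 565 and 637 in Normal-WT livers (0.57 ± 0.24, limma adjusted p = 0.502). For Sel1l and Selenos the groups were separate, and neither passed. Derl3, a derlin of the retrotranslocation machinery, was at the edge of detection: it read 81.4, 49.7 and 14.4 in Tumor-WT livers and 10.2, 4.20 and 0 in Normal-WT livers, where 1 read is worth 0.72 to 1.13. Herpud1, a membrane adaptor of degradation, was dominated by 1 liver, at 3628, 7851 and 2807 in Tumor-WT livers, against 3107, 4289 and 1520 in Normal-WT livers, and the groups overlapped. Edem1, a lectin of degradation, had a log2 fold change of 0.11 ± 0.23. Of the translocation genes Sec61b, a subunit of the Sec61 channel, read 601, 697 and 504 in Tumor-WT livers, against 406, 269 and 467 in Normal-WT livers (0.68 ± 0.25, limma adjusted p = 0.374). Ssr1, a subunit of the translocon-associated complex, read 6753, 5968 and 7298 in Tumor-WT livers, against 6323, 5237 and 5742 in Normal-WT livers, with overlap (0.21 ± 0.18, limma adjusted p = 0.861).

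The ATF4 branch varied more from liver to liver. Of its 7 genes 6 had a positive log2 fold change in Tumor-WT over Normal-WT with a median of 1.14, against 50.4% of all genes. By limma 0 passed the threshold, and 3 were higher at an unadjusted p under 0.05, against 4.49% of all genes. Chac1, a glutathione-degrading enzyme induced by ATF4, read 263, 155 and 340 normalised reads in Tumor-WT livers, against 3.39, 54.7 and 25.6 in Normal-WT livers. The groups were far apart and 1 tumour-free liver stood at only a few reads, and the log2 fold change of 3.69 ± 1.12 (limma adjusted p = 0.224) was 3.0 ± 0.71 with a pseudocount of 10. Asns, asparagine synthetase, read 93.6, 487 and 398 in Tumor-WT livers, against 29.4, 95.7 and 34.1 in Normal-WT livers (2.5 ± 0.75, limma adjusted p = 0.22), and 1 liver of each group met at about the same level. Sesn2, a stress-induced inhibitor of mTORC1, read 306, 241 and 359 in Tumor-WT livers, against 149, 112 and 145 in Normal-WT livers (1.14 ± 0.39, limma adjusted p = 0.32). Trib3, a pseudokinase induced by ATF4 and CHOP, read 49.7, 54.0 and 98.5 in Tumor-WT livers, against 12.4, 8.41 and 17.0 in Normal-WT livers (2.31 ± 1.19, limma adjusted p = 0.649). Sesn2 and Trib3 did not overlap between the groups. Atf4 itself read 2475, 3894 and 2980 in Tumor-WT livers, against 2523, 2666 and 2293 in Normal-WT livers (0.30 ± 0.20, limma adjusted p = 0.771). Ddit3, the gene of the factor CHOP, went the other way without passing, at 41.1, 58.3 and 17.7 in Tumor-WT livers and 45.2, 86.2 and 68.2 in Normal-WT livers (-0.86 ± 0.67, limma adjusted p = 0.837). Ppp1r15a, the phosphatase subunit that reverses eIF2 alpha phosphorylation, was high in 1 tumour-bearing liver alone, at 298, 72.7 and 83.0 in Tumor-WT livers, against 61.0, 82.0 and 79.5 in Normal-WT livers. Ddit3 overlaps Mars1, and Ppp1r15a overlaps Tulp2, on the opposite strand.

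The 3 sensors did not pass. Atf6 read 4262, 3740 and 4872 normalised reads in Tumor-WT livers, against 4629, 5828 and 3737 in Normal-WT livers (-0.13 ± 0.18, limma adjusted p = 0.962). Ern1 read 4321, 3737 and 5734 in Tumor-WT livers, against 5361, 4276 and 5898 in Normal-WT livers (-0.18 ± 0.21, limma adjusted p = 0.926). Eif2ak3 read 608, 956 and 743 in Tumor-WT livers, against 729, 744 and 545 in Normal-WT livers (0.18 ± 0.27, limma adjusted p = 0.962). The groups overlapped for these 3 genes, and Xbp1 was the 1 gene of this class whose groups did not. Creb3l3, a liver-enriched factor of the ER membrane related to ATF6 that is known for acute phase and lipid genes, read 1006, 1594 and 801 in Tumor-WT livers, against 1210, 1785 and 1112 in Normal-WT livers (-0.30 ± 0.30, limma adjusted p = 0.898), with overlap.

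**Figure D2:**
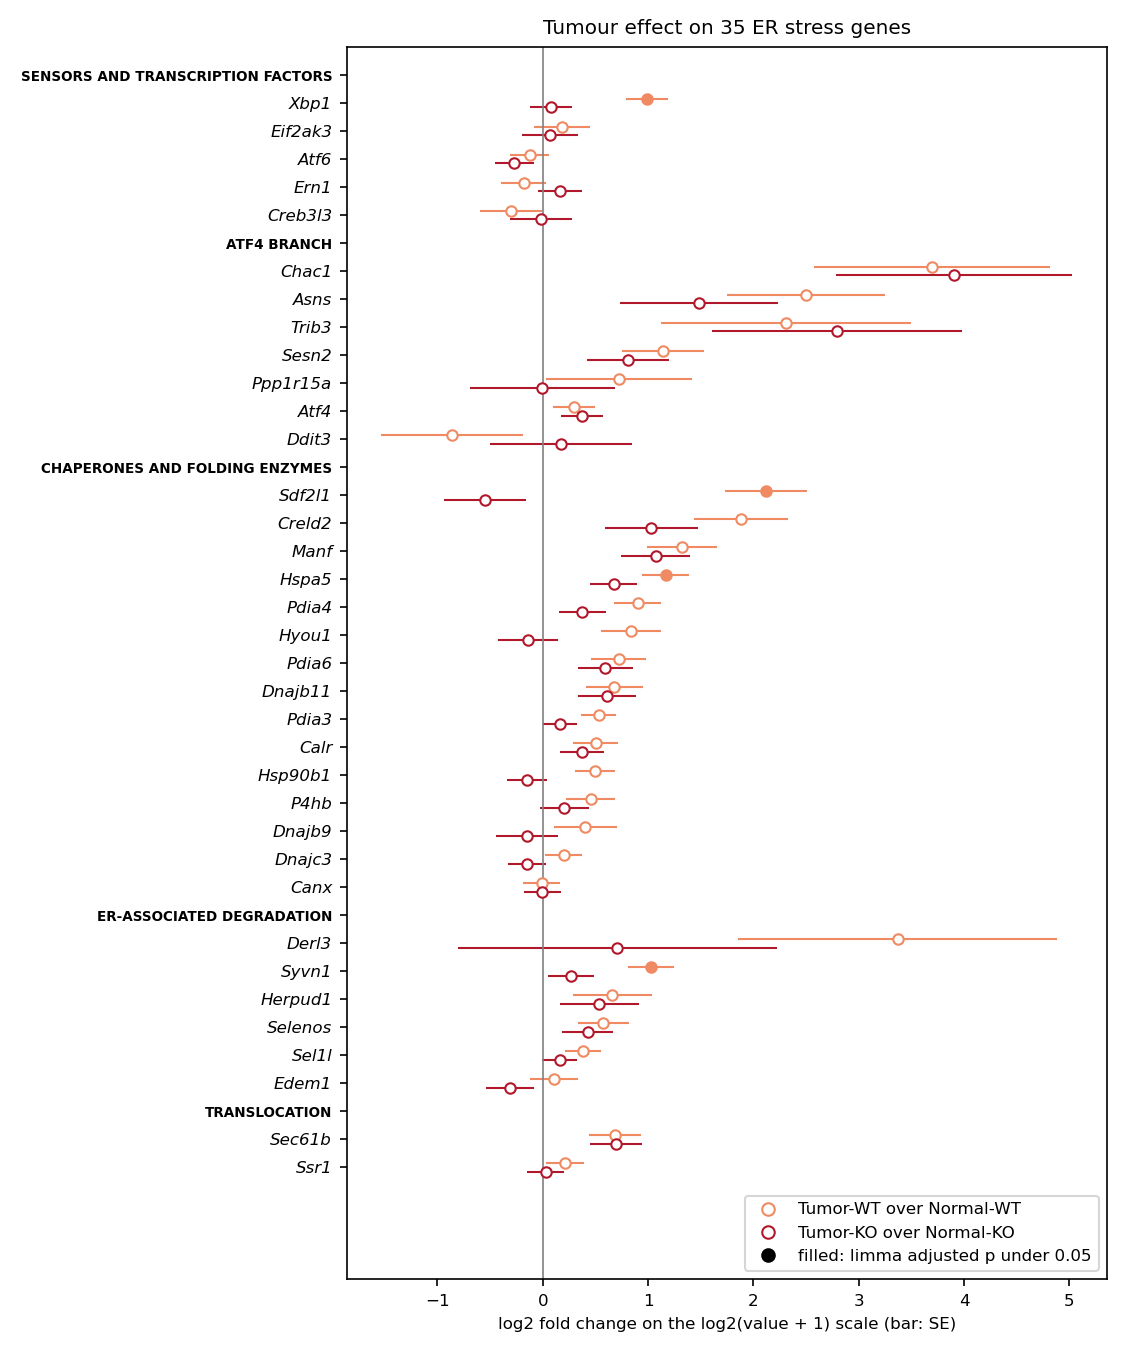
Log2 fold change (horizontal axis, with its SE as a bar) of each of the 35 members by role class down the page, Tumor-WT over Normal-WT above Tumor-KO over Normal-KO for each gene; filled points have a limma adjusted p under 0.05. Sdf2l1, Hspa5, Xbp1 and Syvn1 are the filled points, all in WT, and Sdf2l1 lies at 2.12 in WT and at -0.55 in KO.

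Other cell types also differed between the groups of WT livers. Summed neutrophil markers (13 of 14 listed found) lay between 844 and 1216 normalised reads in Tumor-WT, against 24.8 to 108 in Normal-WT, and summed stellate and fibroblast markers (10 of 10) between 19224 and 23373, against 10981 to 13558. Erythroid markers (7 of 8) lay between 6315 and 10552, against 2167 to 4266. Endothelial markers (6 of 6) lay between 8635 and 10305, against 4836 to 7332. Macrophage markers (9 of 9) lay between 7901 and 11324, against 4555 to 9817, with overlap. Of these markers Col3a1, Dcn, Ccr2 and Alas2 rose past the threshold, against 0.432% of all genes. Of 9 hepatocyte markers 4 had a positive and 5 a negative log2 fold change, with a median of -0.13, and 0 passed the threshold. Their sum, most of which is Alb, lay between 3206800 and 3687550 in Tumor-WT, against 2365110 to 2679480 in Normal-WT. In bulk tissue a change in the number of cells of a type and a change in RNA per cell cannot be told apart, and the part of these markers in the results was not tested. Plasma cells, which express Xbp1, Sdf2l1 and Derl3 strongly, were covered by 10 of 12 listed B and plasma cell markers, with 0 of the 10 at 0 in every library. These markers summed to 730, 6052 and 647 normalised reads in Tumor-WT, against 543, 793 and 999 in Normal-WT. Tumor-WT replicate 2 was the highest of these 6 libraries, and the other Tumor-WT values lay within the Normal-WT range. Taken gene by gene, 10 of 10 had a positive log2 fold change, against 50.4% of all genes. Their median was 0.74, and 0 passed the threshold. The part of plasma cells in the levels of Sdf2l1, Xbp1 and Derl3 was not tested.

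In KO livers 0 members passed the limma threshold for a tumour effect, as was the case for 0.0% of all genes, and 0 passed in any of the 22 other settings tried. At an unadjusted p under 0.05, 8 members were higher and 0 lower, against 5.13% and 7.58% of all genes tested and 12.7% in either direction. Of the 35 members 25 had a positive log2 fold change with a median of 0.20, against 45.7% of all genes and a median of -0.08 over all genes. The count of positive members was 28 after rescaling to equal totals and 32 with quantile normalization. In 11 members every Tumor-KO library lay above every Normal-KO library, against 7.34% of all genes, and in 1, Atf6, every one lay below, against 9.48%. Hspa5 read 13690, 10254 and 10291 normalised reads in Tumor-KO livers, against 5799, 8716 and 7051 in Normal-KO livers, which did not overlap (0.67 ± 0.22, limma adjusted p = 0.329). Manf read 1923, 1074 and 1089 in Tumor-KO livers, against 359, 678 and 996 in Normal-KO livers (1.07 ± 0.33, limma adjusted p = 0.327). For Hspa5 and Manf the shallow library, Tumor-KO replicate 1, was the highest of its group. Sdf2l1 read 316, 728 and 456 in Tumor-KO livers, against 879, 743 and 504 in Normal-KO livers (-0.55 ± 0.39, limma adjusted p = 0.521). Xbp1 read 6793, 9809 and 10616 in Tumor-KO livers, against 8748, 8737 and 7884 in Normal-KO livers (0.08 ± 0.20, limma adjusted p = 0.875). Neither gene separated the groups. Creld2 read 259, 136 and 133 in Tumor-KO livers, against 98.3, 116 and 47.4 in Normal-KO livers (1.03 ± 0.44, limma adjusted p = 0.375), without overlap. Syvn1 read 1876, 1634 and 1213 in Tumor-KO livers, against 1188, 1398 and 1288 in Normal-KO livers, with overlap (0.27 ± 0.22, limma adjusted p = 0.574).

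The sensors did not pass in KO livers either. Atf6 read 3388, 3866 and 3606 normalised reads in Tumor-KO livers, against 4293, 4344 and 4438 in Normal-KO livers (-0.27 ± 0.18, limma adjusted p = 0.51). Ern1 read 5472, 5400 and 6219 in Tumor-KO livers, against 4470, 6460 and 4514 in Normal-KO livers (0.17 ± 0.21, limma adjusted p = 0.733). Eif2ak3 read 644, 929 and 687 in Tumor-KO livers, against 566, 998 and 629 in Normal-KO livers (0.07 ± 0.27, limma adjusted p = 0.92). Of the 3 sensor genes Atf6 lay lower in every tumour-bearing KO liver, and the other two overlapped. Creb3l3 read 2219, 1376 and 1519 in Tumor-KO livers, against 1562, 1325 and 2316 in Normal-KO livers, with overlap (-0.02 ± 0.30, limma adjusted p = 0.986). Ssr1 read 4478, 5890 and 5001 in Tumor-KO livers, against 5199, 5562 and 4309 in Normal-KO livers, with overlap (0.03 ± 0.18, limma adjusted p = 0.958). Among markers of other cell types, those of neutrophils summed to between 82.5 and 520 in Tumor-KO, against 27.6 to 127 in Normal-KO, and those of stellate cells and fibroblasts to between 14497 and 19078, against 11339 to 13174. Endothelial markers (6 of 6) lay between 9115 and 15123 in Tumor-KO, against 6460 to 7657 in Normal-KO. Erythroid markers lay between 2456 and 11915, against 2469 to 4318, with overlap. Plasma and B cell markers lay between 1126 and 2113, against 850 to 1978, with overlap. Macrophage markers lay between 7463 and 11641, against 5115 to 10031, with overlap. Of 7 erythroid markers 3 had a positive log2 fold change, and of 10 plasma and B cell markers 4, against 45.7% of all genes. The part of these markers in the results was not tested.

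The ATF4 branch in KO livers had 6 of 7 genes positive, with a median of 0.81, against 45.7% of all genes. Chac1 read 126, 33.2 and 162 normalised reads in Tumor-KO livers, against 1.89, 30.1 and 1.32 in Normal-KO livers (3.91 ± 1.12, limma adjusted p = 0.324), and 2.51 ± 0.71 with a pseudocount of 10, since the values of Normal-KO replicates 1 and 3 stand for 1 or 2 reads. Trib3 read 464, 26.7 and 56.9 in Tumor-KO livers, against 0.945, 25.6 and 42.1 in Normal-KO livers (2.79 ± 1.19, limma adjusted p = 0.372). That difference came with 1 high library, Tumor-KO replicate 1, and 1 low one, Normal-KO replicate 1. Asns read 182, 42.3 and 118 in Tumor-KO livers, against 23.6, 51.1 and 32.9 in Normal-KO livers (1.48 ± 0.75, limma adjusted p = 0.411), with overlap at the lowest tumour-bearing liver. Atf4 read 4123, 2837 and 3045 in Tumor-KO livers, against 2605, 2688 and 2362 in Normal-KO livers, without overlap (0.37 ± 0.20, limma adjusted p = 0.431). Ddit3 read 54.2, 29.9 and 60.8 in Tumor-KO livers, against 26.5, 42.1 and 61.8 in Normal-KO livers (0.17 ± 0.67, limma adjusted p = 0.924), with overlap. Sec61b read 727, 825 and 794 in Tumor-KO livers, against 463, 553 and 439 in Normal-KO livers (0.69 ± 0.25, limma adjusted p = 0.347). Selenos read 1413, 842 and 797 in Tumor-KO livers, against 585, 814 and 818 in Normal-KO livers, and Herpud1 5671, 4506 and 4454 in Tumor-KO livers, against 2938, 3898 and 3252 in Normal-KO livers. Of these degradation genes Herpud1 separated and Selenos did not. Without both libraries that stood apart the log2 fold change of Creld2 in KO livers was 0.33 in place of 1.03, that of Sesn2 0.27 in place of 0.81, that of Dnajb11, a BiP cochaperone, 0.30 in place of 0.61, that of Atf4 0.15 in place of 0.37, that of Pdia6 0.36 in place of 0.59 and that of Selenos 0.25 in place of 0.43. Hspa5 was at 0.53 and Manf at 1.13.

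**Figure D3:**
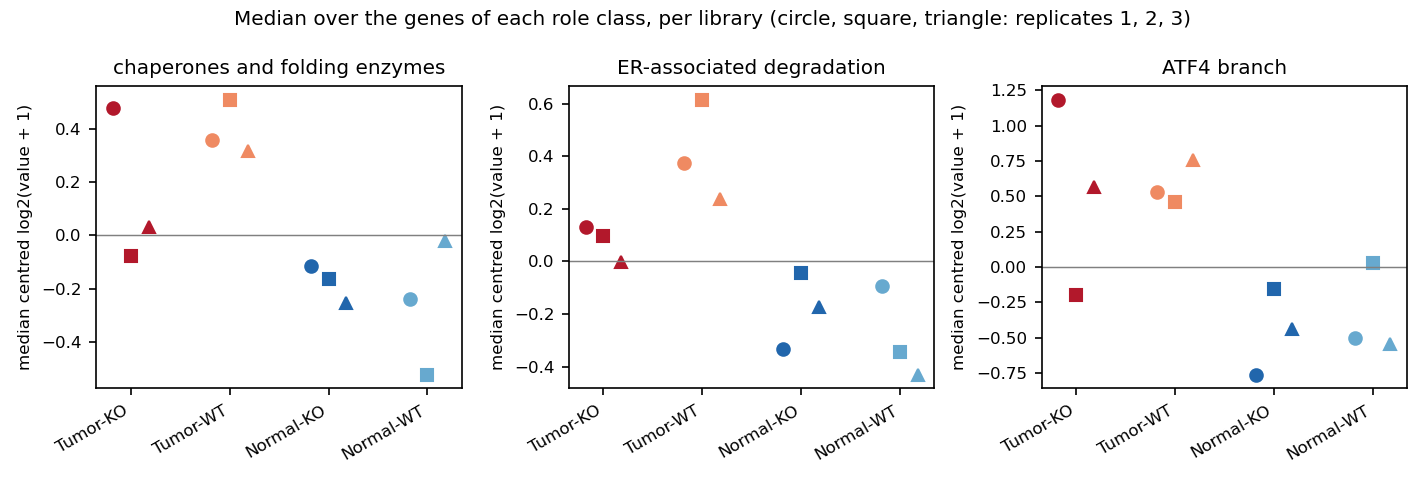
For each library, the median over the genes of a role class of log2(value + 1) minus the gene's mean over 12 libraries (vertical axis), by group on the horizontal axis; each point is 1 library. The 3 Tumor-WT libraries lie between 0.32 and 0.51 for the chaperones, whereas the Tumor-KO libraries spread from -0.08 to 0.48, with replicate 1 at the top.

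Averaged over both genotypes, the tumour effect passed the limma threshold in 4 members, all higher, against 0.616% of all genes tested, and 0 were lower, against 0.449%, or 1.06% in either direction. At an unadjusted p under 0.05, 20 members were higher and 0 lower, against 7.08% and 8.06%. Of the 35 members 29 had a positive log2 fold change, against 46.8% of all genes. The 4 were Hspa5 (0.92 ± 0.16, SE, limma adjusted p = 0.0138), Manf (1.2 ± 0.23, 0.0282), Chac1 (3.80 ± 0.79, 0.0386) and Creld2 (1.46 ± 0.31, 0.0418). Hspa5 passed both here and in WT livers alone, and the same livers enter both comparisons. In Hspa5, Manf, Pdia6 and Sesn2 all 6 tumour-bearing livers lay above all 6 tumour-free livers, against 0.748% of all genes. The call of Hspa5 ended without Normal-KO replicate 1 (limma adjusted p = 0.0548) and held in the other 11 single omissions. Among single omissions Creld2 passed only without Tumor-KO replicate 1 or 2 or Normal-KO replicate 2, with adjusted p between 0.0370 and 0.125. Chac1 passed without the same 3 libraries and without Normal-WT replicate 2, with adjusted p between 0.0168 and 0.106. Manf passed in 6 of the 12 single omissions and ended without Tumor-KO replicate 3 (limma adjusted p = 0.0545), Tumor-WT replicate 1 (0.0764) or 2 (0.0599), Normal-KO replicate 1 (0.0586) or Normal-WT replicate 1 (0.0692) or 2 (0.0833). With the replicate number as a block Manf (0.0503), Chac1 (0.0564) and Creld2 (0.0600) did not pass. Without both libraries that stood apart Chac1 (limma adjusted p = 0.0842) and Creld2 (0.0683) did not pass. In the same comparison the stellate and fibroblast markers Dcn, Lum and Pdgfrb, the endothelial marker Clec4g and the erythroid marker Alas2 also rose past the threshold. Positive log2 fold changes were found for 9 of 10 stellate and fibroblast, 6 of 6 endothelial and 7 of 7 erythroid markers. The count was 9 of 9 for macrophage and 7 of 7 for tested neutrophil markers. It was 7 of 10 for plasma and B cell and 5 of 9 for hepatocyte markers, against 46.8% of all genes. The part of these markers in the member results was not tested. The span of Manf in the table overlaps Dcaf1 on the opposite strand and Rbm15b on the same strand.

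Between tumour-bearing livers 14 of the 15 chaperone genes had lower means on the log2 scale in KO than in WT, and none of them passed the test. Of the 35 members 26 had a negative log2 fold change in Tumor-KO over Tumor-WT, with a median of -0.35, against a median of -0.12 over all genes, and 9 a positive one, against 42.8% of all genes. By limma 0 members passed, against 0.023% of all genes, and at an unadjusted p under 0.05, 11 were lower and 0 higher, against 8.13% and 6.31% of all genes tested. In 10 members every Tumor-KO library lay below every Tumor-WT library, against 9.8% of all genes, and in 1, Sec61b, every one lay above, against 8.11%. The same Tumor-WT libraries enter this comparison and the tumour effect in WT livers, so their high values appear in both.

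Sdf2l1 had the smallest p of the members, with 316, 728 and 456 normalised reads in Tumor-KO livers, against 2206, 2322 and 3034 in Tumor-WT livers. The highest KO liver lay far below the lowest WT liver. The log2 fold change was -2.40 ± 0.39 (SE, limma adjusted p = 0.0607). It passed in 8 of the 22 other settings tried, among them a pseudocount of 10 (limma adjusted p = 0.0296), no filter (0.0383), quantile normalization (0.0294), robust eBayes (0.0438), library weights (0.000915) and the omission of Tumor-KO replicate 2 (0.0441), Tumor-WT replicate 2 (0.0240) or Normal-WT replicate 3 (0.0133). Xbp1 read 6793, 9809 and 10616 in Tumor-KO livers, against 15524, 15906 and 19881 in Tumor-WT livers (-0.93 ± 0.20, limma adjusted p = 0.128), and passed without Tumor-WT replicate 2 (0.0482) and with library weights (0.00966). Hsp90b1 read 18244, 18986 and 20388 in Tumor-KO livers, against 33417, 29099 and 34211 in Tumor-WT livers (-0.75 ± 0.19, limma adjusted p = 0.151). For both genes the groups did not overlap. Hyou1 read 6527, 5567 and 5345 in Tumor-KO livers, against 13118, 10082 and 10258 in Tumor-WT livers (-0.93 ± 0.28, limma adjusted p = 0.204), and Creld2 259, 136 and 133 in Tumor-KO livers, against 643, 439 and 354 in Tumor-WT livers (-1.47 ± 0.44, limma adjusted p = 0.204). Neither gene had overlapping groups. Hspa5 was lower by less, with all 3 Tumor-KO livers below the lowest Tumor-WT liver (-0.50 ± 0.22, limma adjusted p = 0.333).

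Several members differed little or the other way between these groups. Sec61b, at 727, 825 and 794 normalised reads in Tumor-KO livers and 601, 697 and 504 in Tumor-WT livers, was higher in every KO liver (0.39 ± 0.25, limma adjusted p = 0.459). Creb3l3 read 2219, 1376 and 1519 in Tumor-KO livers, against 1006, 1594 and 801 in Tumor-WT livers (0.62 ± 0.30, limma adjusted p = 0.357), with overlap. The ATF4-branch genes had a median of -0.01, with 4 of 7 negative and 3 positive, against 42.8% of all genes positive. In 0 of them did the groups separate, against 9.8% of all genes lower and 8.11% higher. These counts lay near the shares over all genes. Ssr1 read 4478, 5890 and 5001 in Tumor-KO livers, against 6753, 5968 and 7298 in Tumor-WT livers (-0.39 ± 0.18, limma adjusted p = 0.342). Syvn1, at 1876, 1634 and 1213 in Tumor-KO livers, against 2521, 2787 and 1759 in Tumor-WT livers, overlapped between the groups (-0.58 ± 0.22, limma adjusted p = 0.265). Without both libraries that stood apart Sdf2l1 was at -2.11, Hsp90b1 at -0.71, Xbp1 at -0.74, Creld2 at -1.78 and Hyou1 at -1.02. Neutrophil markers, which summed to between 82.5 and 520 in Tumor-KO and 844 and 1216 in Tumor-WT, moved in the same direction. Of 7 tested neutrophil markers 0 had a positive log2 fold change, of 7 erythroid markers 1, and of 10 stellate and fibroblast markers 2. The count was 3 of 9 for macrophage, 3 of 6 for endothelial and 5 of 10 for plasma and B cell markers. It was 6 of 9 for hepatocyte markers, against 42.8% of all genes. Plasma and B cell markers summed to 2113, 1126 and 1491 in Tumor-KO, against 730, 6052 and 647 in Tumor-WT. The part of these markers was not tested. The chaperone class had a median of -0.42.

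**Figure D4:**
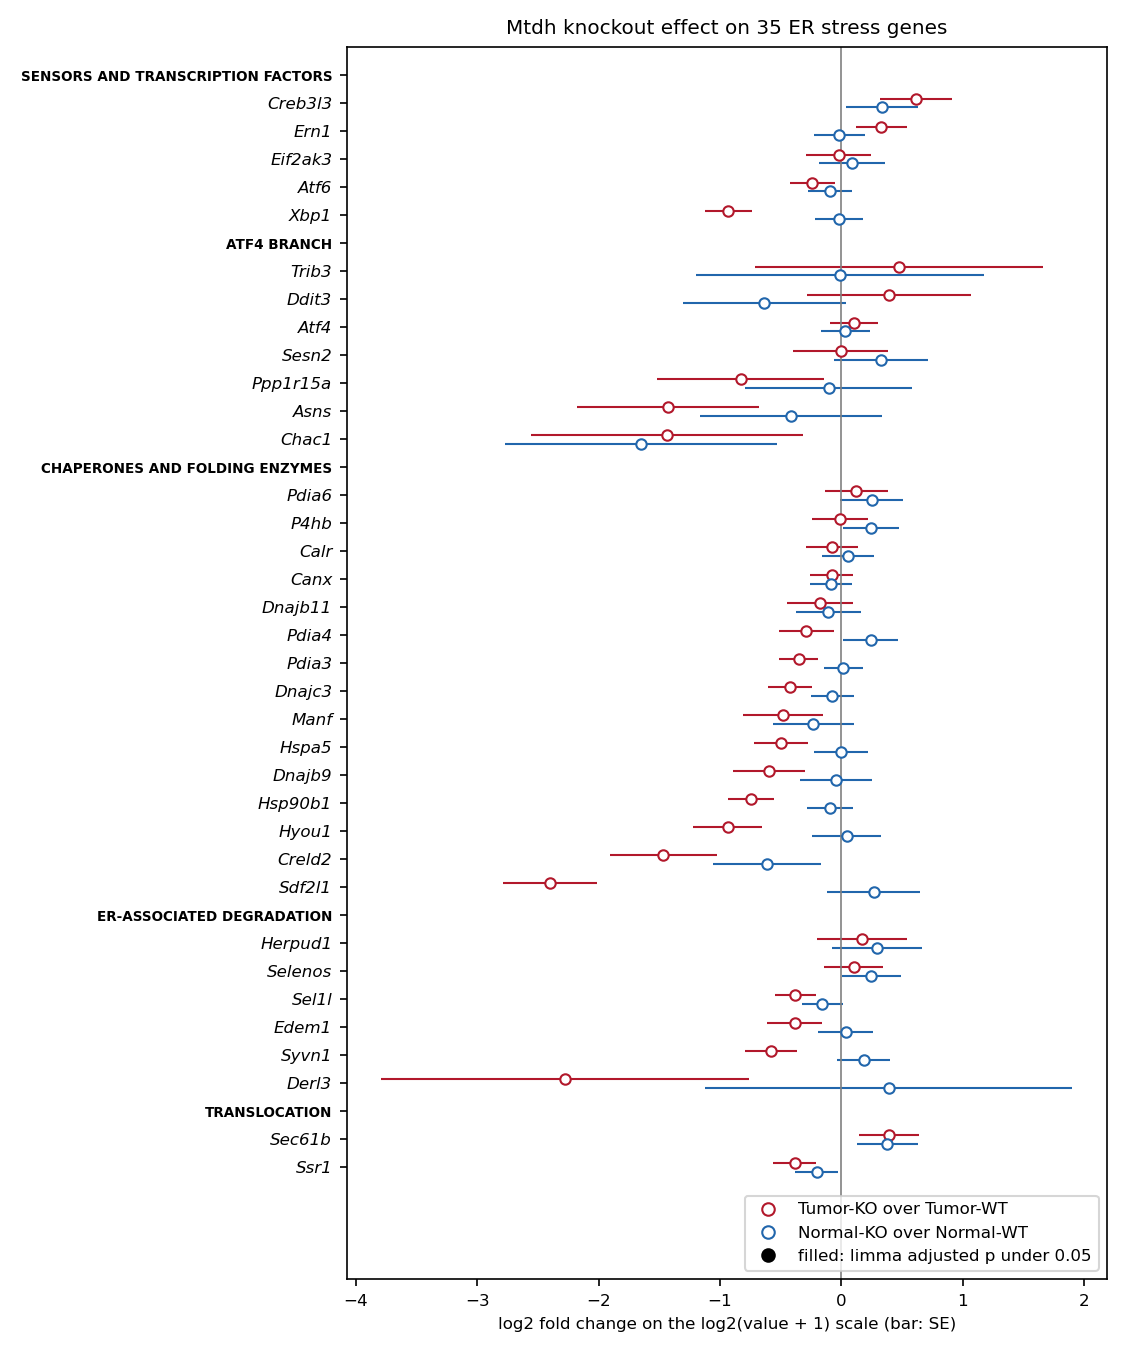
Log2 fold change (horizontal axis, with its SE as a bar) of each of the 35 members by role class down the page, Tumor-KO over Tumor-WT above Normal-KO over Normal-WT for each gene; 0 members have an adjusted p under 0.05. Most chaperones lie left of 0 in tumour-bearing livers, down to Sdf2l1 at -2.40, and near 0 in tumour-free livers.

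In tumour-free livers no difference between KO and WT was detected in these genes. By limma 0 members passed, against 0.00575% of all genes tested, and 0 had an unadjusted p under 0.05, against 1.93%, or 0.978% higher and 0.955% lower. Of the 35 members 17 had a positive log2 fold change in Normal-KO over Normal-WT, against 49.0% of all genes, and 18 a negative one, with a median of -0.01, which is also the median over all genes. After rescaling to equal totals 13 were positive and 22 negative. The fold changes ran from -1.65 to 0.39. Their lowest was that of Chac1, at 1.89, 30.1 and 1.32 normalised reads in Normal-KO livers and 3.39, 54.7 and 25.6 in Normal-WT livers, with overlap (-1.65 ± 1.12). Xbp1 (-0.02 ± 0.20), Hspa5 (-0.01 ± 0.22), Sdf2l1 (0.27 ± 0.39) and Hsp90b1 (-0.10 ± 0.19) each had overlapping groups. Sesn2 alone separated, at 169, 190 and 150 in Normal-KO livers and 149, 112 and 145 in Normal-WT livers, against 3.56% of all genes higher without overlap, and 0 members separated lower, against 4.37%, and its log2 fold change was within its error (0.33 ± 0.39). The span of Sesn2 overlaps Gm12981.

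The test of the difference itself, the tumour effect in KO minus that in WT, passed in 0 members and in 0.0% of all genes. At an unadjusted p under 0.05 the tumour effect was smaller in KO livers for 5 members and larger for 0, against 2.74% and 1.96% of all genes tested and 4.7% in either direction. The 5 were Sdf2l1 (-2.67 ± 0.55, SE, limma adjusted p = 0.727), Xbp1 (-0.91 ± 0.28), Syvn1 (-0.76 ± 0.30), Hyou1 (-0.98 ± 0.40) and Hsp90b1 (-0.65 ± 0.27), each of the last 4 with a limma adjusted p of 0.859. That the tumour effect differs between genotypes in any of these genes is therefore not shown at this number of mice. Of 15 chaperones 14 had a negative difference, with a median of -0.37, as had 6 of 6 degradation genes, with a median of -0.32, whereas 4 of 7 ATF4-branch genes were positive, with a median of 0.07. The median over all genes was -0.09, and 45.0% of all genes were positive, against 8 of the 35 members. Ddit3, at 1.03 ± 0.95, and Ssr1, at -0.18 ± 0.25, were within about 1 SE of 0. Averaged over tumour states, KO over WT had 0 members past the threshold, against 0.0115% of all genes, with 7 lower and 2 higher at an unadjusted p under 0.05, against 5.43% and 4.86%.

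**Figure D5:**
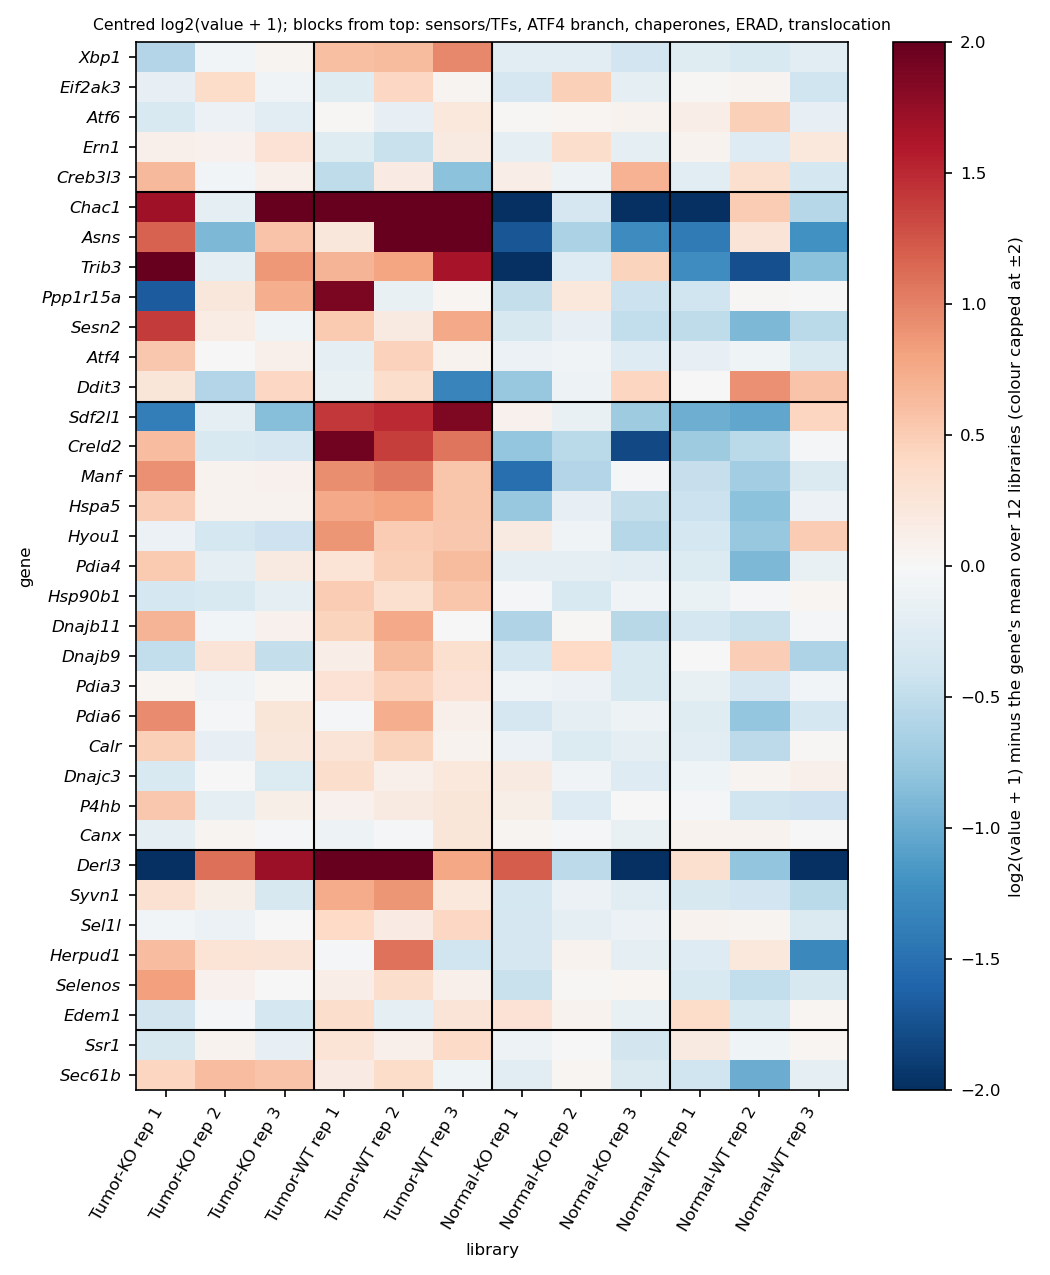
Colour shows log2(value + 1) minus the gene's mean over the 12 libraries, for 35 members (rows, in blocks by role class) and 12 libraries (columns, in blocks by group), with colour capped at 2 in either direction. Sdf2l1, Creld2, Manf, Hspa5 and Hsp90b1 are red in all 3 Tumor-WT columns, and of these Sdf2l1 and Hsp90b1 are blue in all 3 Tumor-KO columns.

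Of 153 further pathway genes listed, 150 were found and 149 tested. In Tumor-WT over Normal-WT, 22 of 25 other folding genes had a positive log2 fold change with a median of 0.37, against 50.4% of all genes, and 0 passed the threshold. Of 42 other genes of the secretory route 36 were positive with a median of 0.28, against 50.4% of all genes. Past the threshold 1 of them fell, against 0.247% of all genes: Sar1b, a GTPase of COPII vesicles that carry lipoproteins. Sar1b read 2235, 2765 and 2141 normalised reads in Tumor-WT livers, against 4214, 4641 and 4238 in Normal-WT livers (-0.88 ± 0.18, limma adjusted p = 0.0432). Sar1b thus lay lower in every tumour-bearing WT liver, against the direction of most of its list. Of 35 other ATF4 targets 30 were positive with a median of 0.39, against 50.4% of all genes. The lipoprotein receptor gene Vldlr was the 1 target that fell past the threshold, against 0.247% of all genes. Vldlr read 168, 442 and 589 in Tumor-WT livers, against 1606, 1593 and 861 in Normal-WT livers (-1.88 ± 0.39, limma adjusted p = 0.0448). Other degradation genes had 10 of 24 positive with a median of -0.05, and other signalling genes 16 of 23 with a median of 0.08. For both lists the share over all genes was 50.4%, and 0 of either list passed. Among them Creb3l2, a factor related to ATF6, read 2549, 2317 and 2715 in Tumor-WT livers, against 1672, 1048 and 1252 in Normal-WT livers, without overlap (0.96 ± 0.24, limma adjusted p = 0.125). Named with it by the smallest p of their lists, the disulphide isomerase gene Pdia5 had a log2 fold change of 0.68, the ubiquitin-conjugating enzyme gene Ube2g2 0.63, the ER membrane cochaperone gene Dnajb14 -0.39, the oligosaccharyltransferase subunit gene Ddost 0.75 and the eIF2 alpha phosphatase subunit gene Ppp1r15b -0.48, and none of them passed.

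In KO livers the same lists had medians of 0.01 for folding, 0.18 for the secretory route, 0.44 for ATF4 targets, 0.02 for degradation and 0.17 for signalling in Tumor-KO over Normal-KO, with 0 genes past the threshold. Averaged over genotypes, Psat1, an enzyme of serine synthesis and a known ATF4 target, rose (1.99 ± 0.44, limma adjusted p = 0.0436). It read 380, 177 and 216 normalised reads in Tumor-KO livers and 187, 517 and 1014 in Tumor-WT livers, against 68.0, 133 and 114 in Normal-KO livers and 40.6, 149 and 54.0 in Normal-WT livers. Every tumour-bearing liver lay above every tumour-free liver for this gene. In the same averaged comparison Sar1b fell past the threshold (-0.60 ± 0.13, limma adjusted p = 0.0406). Of all genes tested 0.616% rose and 0.449% fell past it. Dnajc10, a disulphide reductase of the ER, read 2291, 1340 and 1659 in Tumor-KO livers, against 2982, 2498 and 3336 in Tumor-WT livers, and differed there by -0.76 ± 0.21 (limma adjusted p = 0.171), with the Tumor-WT livers again the highest.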

How the data were processed

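RNA sequencing was carried out on livers of 12 mice in 4 groups of 3, per the labels. The deposited values are a normalized signal: they are DESeq2-normalized, per the name the authors gave the table, and not on a log scale. STAR 2.7.8a, Partek and DESeq2 with build mm39 are named in the submitters' processing notes, and the sources used here give no counting program, annotation release or use of strand. All columns were matched to a sample by its description, and replicate numbers follow the sample titles. In Normal-KO some of these numbers differ from those in the column names.

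The value of 1 read was taken as the smallest step repeated 20 or more times among low values. Of values up to 20 reads, 78.0% to 84.9% were whole multiples within 0.01 reads, so counts were not recovered and no count model was used. Intervals for single values need counts and were not given. The 17380 genes that reached 10 in 3 or more libraries were tested with limma 3.58.1 in R 4.3.3 (trend, two-sided, Benjamini-Hochberg over all genes, 7 comparisons, 1 mean per group, no block). P-values measure the spread between mice. Of 18 pairs of libraries with the same number, the deviations from group means correlated between -0.0936 and 0.0998. The labels name no pairing and no batch, and with 3 libraries a group these correlations cannot exclude either. The pathway members, role classes, lists and alternatives were chosen with earlier results of these data known, and no test was made of a list. By rule, values in all 12 libraries were given for members past the threshold in any comparison, for Hspa5, Xbp1, Atf6, Ern1, Eif2ak3, Atf4, Ddit3 and Creb3l3, and per role class for the 2 of smallest p in each tumour effect and the 1 of smallest p in the interaction and each KO effect. Other members with such values, among them Hsp90b1, Hyou1, Pdia4, Canx, Derl3 and Ppp1r15a, were chosen after their values were seen and are given for the groups they are compared in. Alternatives were a pseudocount of 10, no filter, same totals, quantile normalization, 6 libraries alone, robust eBayes, library weights, a replicate block, protein-coding genes alone, and omitted libraries. The fit was tested on simulated data. Promoters came from RefSeq (GRCm38.p6) and were not used with the table's coordinates. Python 3.11.15 with pandas 2.3.3, numpy 2.4.6 and matplotlib 3.10.9 was used.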

Additional observations from a re-analysis of the deposited data

How the results depend on the processing

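Directions of the median over members kept their sign in each comparison except Normal-KO over Normal-WT, whose median was near 0. In Tumor-WT over Normal-WT the count of 4 members was 2 after rescaling to equal totals, 9 with library weights and 2 with the replicate block, and ran from 0 to 6 over single omissions. With the 6 libraries fitted alone it was 3, namely Sdf2l1, Creld2 and Manf. Its median of 0.66 was 0.52 with library weights and ran from 0.50 to 0.80 over single omissions. In Tumor-KO over Normal-KO the median of 0.20 was 0.35 with quantile normalization and ran from 0.14 to 0.33 over single omissions. In Tumor-KO over Tumor-WT the count of 0 was 1 with a pseudocount of 10, no filter, quantile normalization or robust eBayes, 9 with library weights, and 0 to 2 over single omissions. The median of the interaction, -0.25, was -0.38 without both Tumor-KO replicate 1 and Normal-KO replicate 3, and ran from -0.39 to -0.19 over single omissions. For the tumour effect averaged over genotypes the count of 4 was 7 with quantile normalization, 11 with library weights, 1 with the replicate block and 2 without both libraries that stood apart, and ran from 0 to 7 over single omissions. For KO averaged over tumour states the count of 0 was 2 with library weights. Among all genes tested, 139 passed there with library weights, against 2 without the weights. The labels give the replicate numbers no meaning, and why the counts were lower with the block was not tested. Values that did not pass and changed sign were Atf6 in Tumor-WT over Normal-WT, at 0.0102 with quantile normalization and -0.284 to 0.0368 over single omissions, and Ssr1 in Tumor-KO over Normal-KO, at -0.0792 to 0.120 over single omissions. Quantile normalization moved the median of all genes in Tumor-KO over Tumor-WT to 0.00, and 26 of 35 members stayed negative. Genes past the threshold over the whole table numbered 118 in Tumor-WT over Normal-WT, and 12 to 205 over single omissions and 510 with library weights. There they numbered 102 after rescaling to equal totals, 89 with the replicate block and 136 with the 6 libraries fitted alone. In Tumor-KO over Tumor-WT they numbered 4, 2 to 210 over single omissions and 1664 with library weights. For the averaged tumour effect they numbered 185, 47 to 361 over single omissions and 856 with library weights. There they numbered 233 with quantile normalization, 137 with the replicate block and 133 without both libraries that stood apart. The cause of these changes was not tested. The shallow Tumor-KO replicate 1, where 1 read is worth 2.47, limits low genes such as Derl3.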
